A study of Rattus norvegicus with 372 samples.

Results

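The genes described here belong to the integrated stress response (ISR) and to the target set of ATF4, its main transcription factor. Members were taken from a list of 41 rat gene symbols, matched to the probe names of the whole transcriptome (WT) assay irrespective of case, and 33 of the 41 had a probe. The other 8 (Nupr1, Vldlr2, Psph, Slc3a2, Slc38a2, Gars, Nars and Yars) were not analysed here. All 33 had a mean count of at least 10 per well and were tested among 10191 genes, out of 20946 gene symbols in the WT assay. They were ordered by role into 8 regulators, 5 effectors, 6 enzymes of amino acid and one-carbon metabolism, 4 amino acid transporters and 10 cytosolic tRNA synthetases.

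The ISR is a pathway in which several kinases that sense misfolded protein, amino acid shortage, haem shortage or double-stranded RNA phosphorylate the translation factor eIF2. General protein synthesis then slows, while a few mRNAs, among them that of ATF4, are translated more. ATF4 pairs with C/EBP family proteins and other bZIP factors and raises the transcription of genes for amino acid synthesis, amino acid uptake and tRNA charging, together with regulators such as CHOP (the product of Ddit3) that feed back on the response. In liver the pathway is known for its activation by amino acid shortage, endoplasmic reticulum stress, mitochondrial stress and many drugs. Because ATF4 is controlled at translation, mRNA levels such as those given here do not measure its activity.

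Primary hepatocytes of male Wistar rats, kept in collagen sandwich culture, were exposed for 24 h to 14 chemicals at a high and a low concentration, with 3 wells per treatment in each of 2 batches. The batches came from different rats, so wells within a batch are technical replicates of one animal, and n = 2 animals stands behind every value. Vehicle wells contained 0.5% DMSO (3 wells in batch 1 and 6 in batch 2), and untreated wells contained medium only (3 and 6 wells). The TempO-Seq assay ligates pairs of detector oligos on the target RNA and counts the ligated product, and each lysate was read with the WT assay and with a smaller targeted panel, the ST assay.

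The 186 WT wells held 2289425 to 8975207 reads, and each of the 33 members is given as CPM, its read count relative to the TMM-scaled library size. Log2 fold changes (L2FC) are relative to the vehicle wells of the same batch. A member was called higher or lower when its adjusted p from edgeR's quasi-likelihood test (Benjamini-Hochberg over all 10191 genes) was below 0.05 and its L2FC had the same sign in each batch fitted alone. All treatments share the vehicle wells. In batch 1 these wells were on one plate only, so 6 of the chemicals had no vehicle well on their own plate. Levels are compared within a gene, not between genes, because probes differ in efficiency. No pair of wells of one group agreed within sampling noise (lowest chi-square per degree of freedom 2.11), and every well correlated with the other wells of its group at a median r of at least 0.957 over log2 CPM.

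Hepatocyte markers (8 genes) summed to between 35954 and 43244 CPM in the vehicle wells. The summed level of 5 Kupffer cell and leukocyte markers was 18.1 to 39.2 CPM there, that of 4 stellate cell and fibroblast markers was 13.1 to 39.8 CPM, that of 4 endothelial markers 1.25 to 3.00 CPM and that of 4 biliary markers 32.4 to 45.9 CPM. Col1a1, Des, Stab2, Krt19 and Krt7 had at most 3 counts in every vehicle well. In bulk wells, fewer cells of one kind and less RNA per cell cannot be told apart.

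A C/EBP-ATF response element, the composite site on which ATF4 and a C/EBP protein can bind together, was searched as TGATGNAAN on both strands of the RefSeq promoters (GRCr8, 250 bases before to 50 after the start). The matches are shown because the members are listed together as targets of one factor. They show which promoter entries hold a match within this stretch around the annotated start. Of 33 tested members, 28 had a single promoter entry, the synthetases under their current symbols such as Aars1. The motif was present in 9 of the 28 promoters (32.1%), against 3.97% of all 33469 promoters of this length. By role it was found in 5 of 9 synthetase, 2 of 3 transporter, 1 of 4 effector and 1 of 7 regulator promoters, and in 0 of 5 promoters of amino acid and one-carbon enzymes. The windows below read 5′ to 3′ in the direction of transcription, with the match in capitals. A capital run ending in CATCA is the motif on the opposite strand.
Chac1: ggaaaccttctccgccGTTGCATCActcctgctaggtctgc
Trib3: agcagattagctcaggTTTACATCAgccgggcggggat
Slc7a1: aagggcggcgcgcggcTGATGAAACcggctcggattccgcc
Slc1a4: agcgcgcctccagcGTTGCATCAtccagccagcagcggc
Aars: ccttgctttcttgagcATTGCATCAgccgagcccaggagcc
Cars: gcgccgcgGTTGCATCAgattctgg
Iars: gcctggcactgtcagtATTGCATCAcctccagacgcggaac
Mars: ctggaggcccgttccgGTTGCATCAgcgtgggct
Tars: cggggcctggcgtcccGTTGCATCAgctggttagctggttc
The windows lie at chr3:126795947-126795987 on the plus strand (Chac1), chr3:161275534-161275571 on the minus strand (Trib3), chr12:11664442-11664482 on the plus strand (Slc7a1), chr14:98761774-98761812 on the minus strand (Slc1a4), chr19:55908353-55908393 on the plus strand (Aars), chr1:208225337-208225361 on the minus strand (Cars), chr17:15193653-15193693 on the minus strand (Iars), chr7:65023754-65023787 on the minus strand (Mars) and chr2:62114806-62114846 on the minus strand (Tars). The first base of the match stood at -18 to -30 from the start in Mars, Trib3, Iars, Tars and Slc7a1, at -113 in Aars, at -168 in Chac1, at -236 in Slc1a4 and at 17 within the transcript in Cars. Aars held a further match at 9. In 7 of the 9 genes, all but Trib3 and Slc7a1, a match carried the full TGATGCAA, which 0.795% of all promoters contain. A match is a run of letters and not a measured binding site. The searched stretches are short, so the absence of a match does not show that a gene lacks the site.

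Across the 14 high concentrations, 150 of 462 member and treatment pairs were called higher and 145 were called lower, against 25.0% of all gene and treatment pairs called higher and 25.0% called lower. The regulators were higher in 64 of 112 pairs and lower in 18. The enzymes of amino acid and one-carbon metabolism had the reverse split, with 8 of 84 pairs higher and 42 lower. Effectors were higher in 27 of 70 pairs and lower in 20, transporters were higher in 19 of 56 and lower in 18, and synthetases were higher in 32 of 140 and lower in 47. At the 14 low concentrations together, 20 of 462 pairs were higher and 29 lower, where 4.80% and 4.45% of all pairs were called in those directions. Without well 2 of every group these were 12 and 16, and without well 1 the lower pairs numbered 18.

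**Figure D1:**
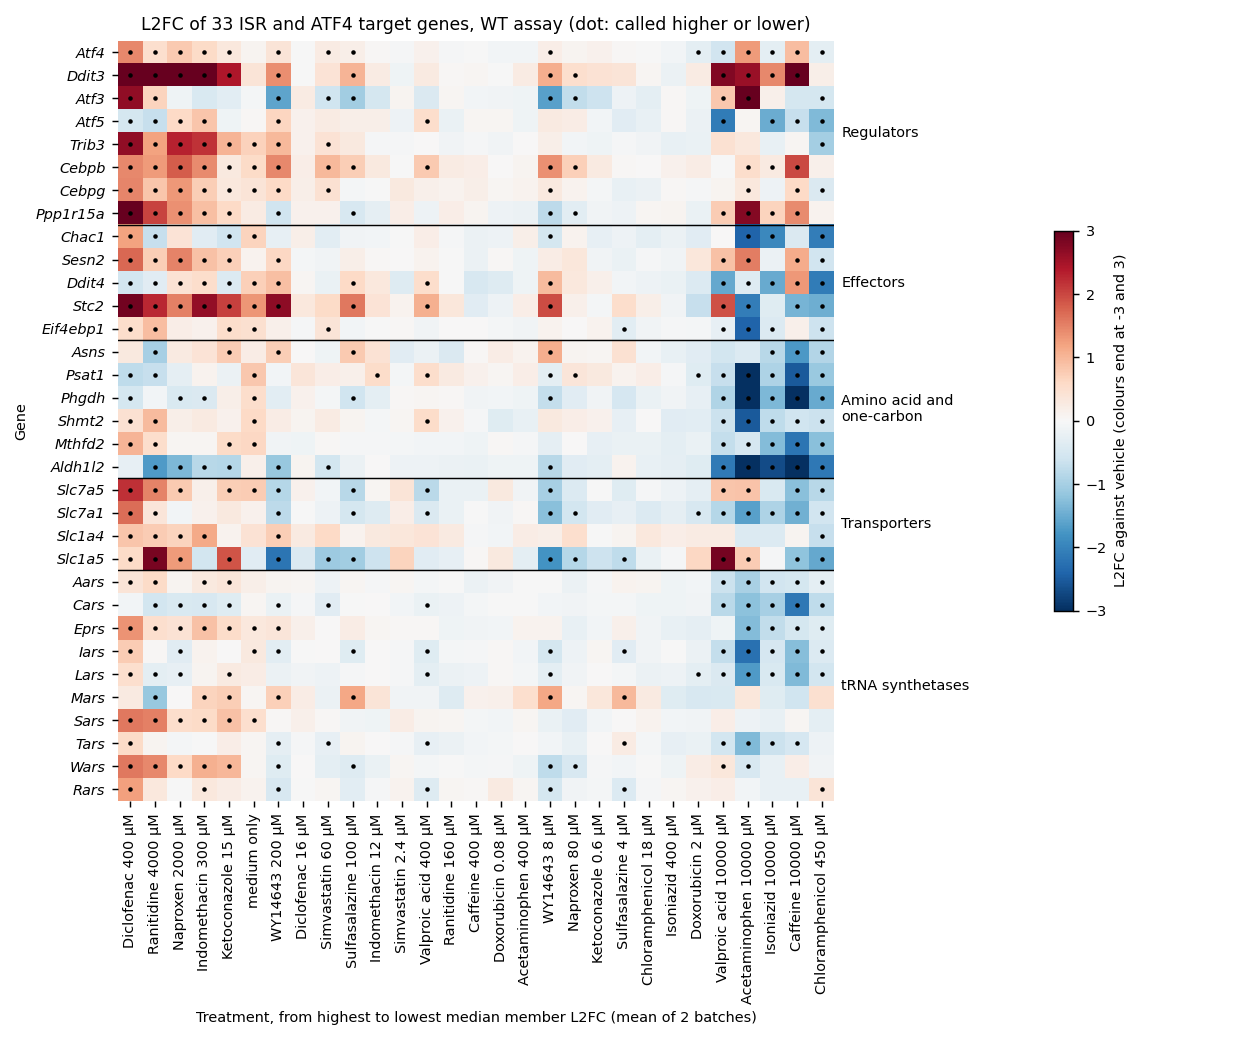
L2FC of the 33 members (rows, by role) against vehicle in the 28 treatments and the medium-only wells (columns, ordered by the median member L2FC). Dots mark members called higher or lower; the upper rows (regulators) are mostly red at the left, while Phgdh, Psat1 and Aldh1l2 are dark blue at the right.

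Treatments were ordered by the mean of the 2 batch medians of member L2FC, which under TMM scaling placed diclofenac at 400 µM first and chloramphenicol at 450 µM last. For diclofenac the median of the 33 members was 0.76 in batch 1 and 1.32 in batch 2. Ranitidine at 4000 µM (0.29 and 0.65), naproxen at 2000 µM (0.29 and 0.43), indomethacin at 300 µM (0.24 and 0.46) and ketoconazole at 15 µM (0.11 and 0.55) followed, with batch values that overlapped from one neighbour to the next. At the other end stood valproic acid at 10000 µM (-0.53 and -0.18), acetaminophen at 10000 µM (-0.43 and -0.40), isoniazid at 10000 µM (-0.72 and -0.29), caffeine at 10000 µM (-0.51 and -0.68) and chloramphenicol (-0.42 and -0.80). Of 27 neighbouring pairs in the order of 28 treatments, only 2 had batch values that did not overlap: diclofenac against ranitidine, and ketoconazole against WY14643 at 200 µM (0.09 and 0.03). The median of all genes tested was between -0.03 and 0.05 in every treatment with both batches fitted together. Scaling by total counts alone moved that median by -0.41 (acetaminophen) to 0.27 (valproic acid), and it put the median member at -0.19 for WY14643 and at 0.03 for valproic acid, so the sign of those 2 medians depended on the scaling. The median of all genes moved by 0.13 for chloramphenicol and by -0.12 for caffeine, so the places at the lower end may depend on the scaling too.

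**Figure D2:**
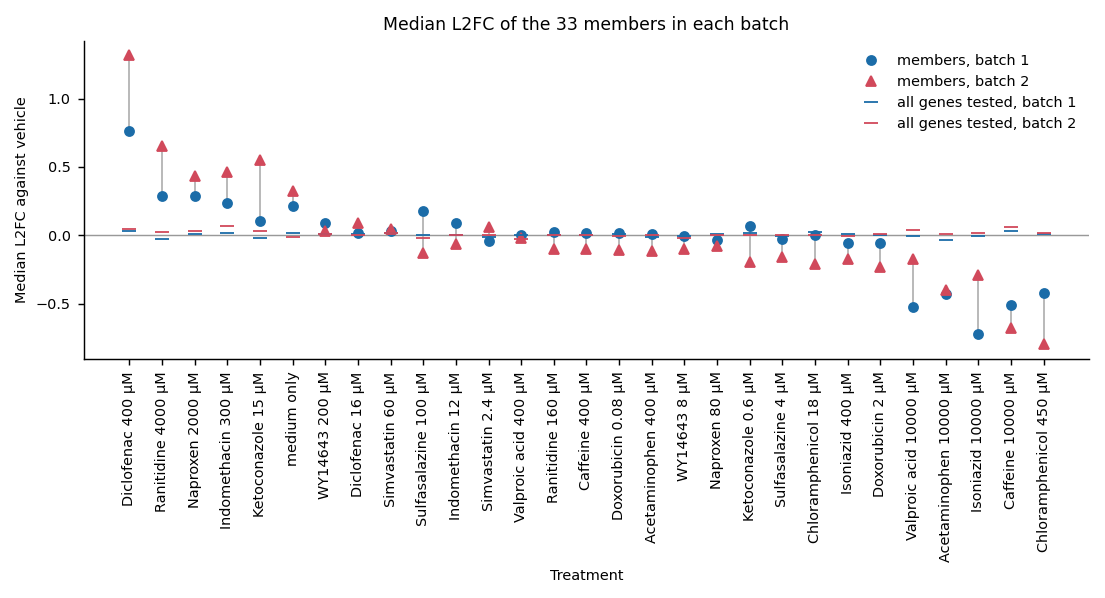
Median L2FC of the 33 members in batch 1 (blue circles) and batch 2 (red triangles) for each treatment, with the median of all genes tested as short bars. Diclofenac at 400 µM stands above the rest in both batches, and most low concentrations lie close to 0.

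Diclofenac, a non-steroidal anti-inflammatory drug, raised 25 of the 33 members and lowered 4, where 35.3% of all genes were called higher and 34.8% lower. In it 7 of 8 regulators, 4 of 5 effectors, all 4 transporters and 8 of 10 synthetases were higher, while Psat1, Ddit4, Atf5 and Phgdh were lower. By the ST assay only Psat1 of these 4 was called lower. The WT wells of Ddit4 overlapped vehicle in batch 1 (L2FC -0.09). The 8 hepatocyte markers were all lower in the same wells (summed 5950 to 8417 CPM). Both tested biliary markers were lower too (3.91 to 8.42 CPM for all 4), as were 2 of 3 tested Kupffer cell and leukocyte markers, with 1 higher (14.4 to 23.1 CPM for all 5), and the 1 tested stellate marker (7.80 to 36.8 CPM for the list). The part of these in the members' values was not tested.

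Ddit3, which encodes the proapoptotic factor CHOP, had the largest rise of any member. Its CPM was 23.4, 25.7 and 29.3 in the vehicle wells of batch 1 and 20.6 to 29.2 (median 27.0) in those of batch 2. With diclofenac it was 2665, 2248 and 2326 in batch 1 and 1534, 1589 and 1652 in batch 2. Every treated well was far above every vehicle well, and the L2FC was 6.30 ± 0.18 (SE, adjusted p = 1.7e-73, edgeR), a 78.8-fold difference. Ddit3 was higher at 11 of the 14 high concentrations and lower at 0 of them by edgeR or DESeq2 (0 also at an unadjusted p below 0.05), and it was the leading riser with diclofenac, ranitidine, naproxen, indomethacin, ketoconazole, caffeine and isoniazid. Naproxen (256, 292 and 250 CPM in batch 1 and 234, 264 and 264 in batch 2) gave an L2FC of 3.34 ± 0.16.

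Ppp1r15a encodes GADD34, the subunit that directs the eIF2 phosphatase and so ends the response. Its vehicle CPM was 132, 147 and 128 in batch 1 and 152 to 183 (median 166) in batch 2. With diclofenac it was 1276, 1144 and 1332 in batch 1 and 1791, 1440 and 1476 in batch 2, an L2FC of 3.21 ± 0.11 (adjusted p = 3.8e-63, edgeR). The groups did not overlap. Ppp1r15a was higher at 9 high concentrations and lower with sulfasalazine at 100 µM (L2FC -0.49) and WY14643 at 200 µM (L2FC -0.59).

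Trib3 encodes a pseudokinase that CHOP and ATF4 induce and that restrains ATF4. In vehicle it was at 81.5, 79.7 and 77.8 CPM in batch 1 and at 45.0 to 61.2 CPM (median 52.8) in batch 2. With diclofenac it reached 475, 405 and 462 CPM in batch 1 and 372, 352 and 346 CPM in batch 2, all above vehicle (L2FC 2.66 ± 0.15, adjusted p = 1.4e-37, edgeR). It also rose with naproxen (L2FC 2.32), indomethacin (2.17), ranitidine (1.20), ketoconazole (1.03), WY14643 (0.98) and simvastatin at 60 µM (0.44), and it fell with chloramphenicol (L2FC -1.02). In the ketoconazole wells the rise was small in batch 1 (L2FC 0.20, wells overlapping vehicle) and larger in batch 2 (1.60).

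Atf4 itself had called L2FC values between -0.56 and 1.44 at the high concentrations. Its CPM was 323, 329 and 307 in the vehicle wells of batch 1 and 309 to 353 (median 329) in those of batch 2. With diclofenac it was 837, 736 and 793 in batch 1 and 1075, 927 and 933 in batch 2, which did not overlap with vehicle (L2FC 1.44 ± 0.07, adjusted p = 7.9e-46, edgeR). Atf4 was higher at 10 of the 14 high concentrations, among them acetaminophen (L2FC 1.28) and caffeine (0.92), where the median member was lower. It was lower with valproic acid (L2FC -0.56), chloramphenicol (-0.30), doxorubicin at 2 µM (-0.30) and isoniazid (-0.29). By the ST assay the falls with chloramphenicol (L2FC -0.14), doxorubicin (-0.19) and isoniazid (-0.14) were smaller and were not called.

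Cebpg, a C/EBP partner of ATF4, was at 20.1, 26.9 and 19.4 CPM in the vehicle wells of batch 1 and at 22.2 to 32.6 CPM (median 27.7) in those of batch 2. With diclofenac it was at 51.4, 45.4 and 56.5 CPM in batch 1 and at 86.7, 83.4 and 91.9 CPM in batch 2. These did not overlap (L2FC 1.46 ± 0.12, adjusted p = 8.8e-24, edgeR). Cebpb, the C/EBP protein of the acute phase response, had its largest rise with caffeine. Its CPM was 333, 322 and 247 in vehicle of batch 1 and 289 to 371 (median 340) in batch 2, against 1032, 954 and 1401 and then 1165, 1327 and 1558 with caffeine. Every caffeine well was above every vehicle well (L2FC 1.97 ± 0.11, adjusted p = 1.1e-38, edgeR). Cebpb was higher at 11 high concentrations and lower at 0 by edgeR or DESeq2, and 0 of its negative L2FC values had an unadjusted p below 0.05.

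Atf3, an early stress-induced repressor, was higher at 4 high concentrations and lower at 4. Its vehicle CPM was 136, 157 and 147 in batch 1 and 109 to 169 (median 130) in batch 2. With acetaminophen it was 1262, 1324 and 1275 in batch 1 and 1405, 994 and 1041 in batch 2, with no overlap (L2FC 3.14 ± 0.21, adjusted p = 1.2e-30, edgeR). Diclofenac raised it too (L2FC 2.66). WY14643 lowered it at 200 µM (L2FC -1.59) and at 8 µM (-1.64), as did sulfasalazine at 100 µM (-1.04). Atf5, which is translated under ISR control like Atf4 and is known in the mitochondrial stress response, had its largest difference with valproic acid. It was at 32.4, 32.6 and 20.8 CPM in vehicle of batch 1 and 21.6 to 38.6 CPM (median 28.7) in batch 2, and at 5.71, 5.78 and 5.88 CPM and 8.24, 7.77 and 6.92 CPM with valproic acid. All valproic acid wells were below vehicle (L2FC -2.10 ± 0.18, adjusted p = 1.7e-21, edgeR).

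**Figure D3:**
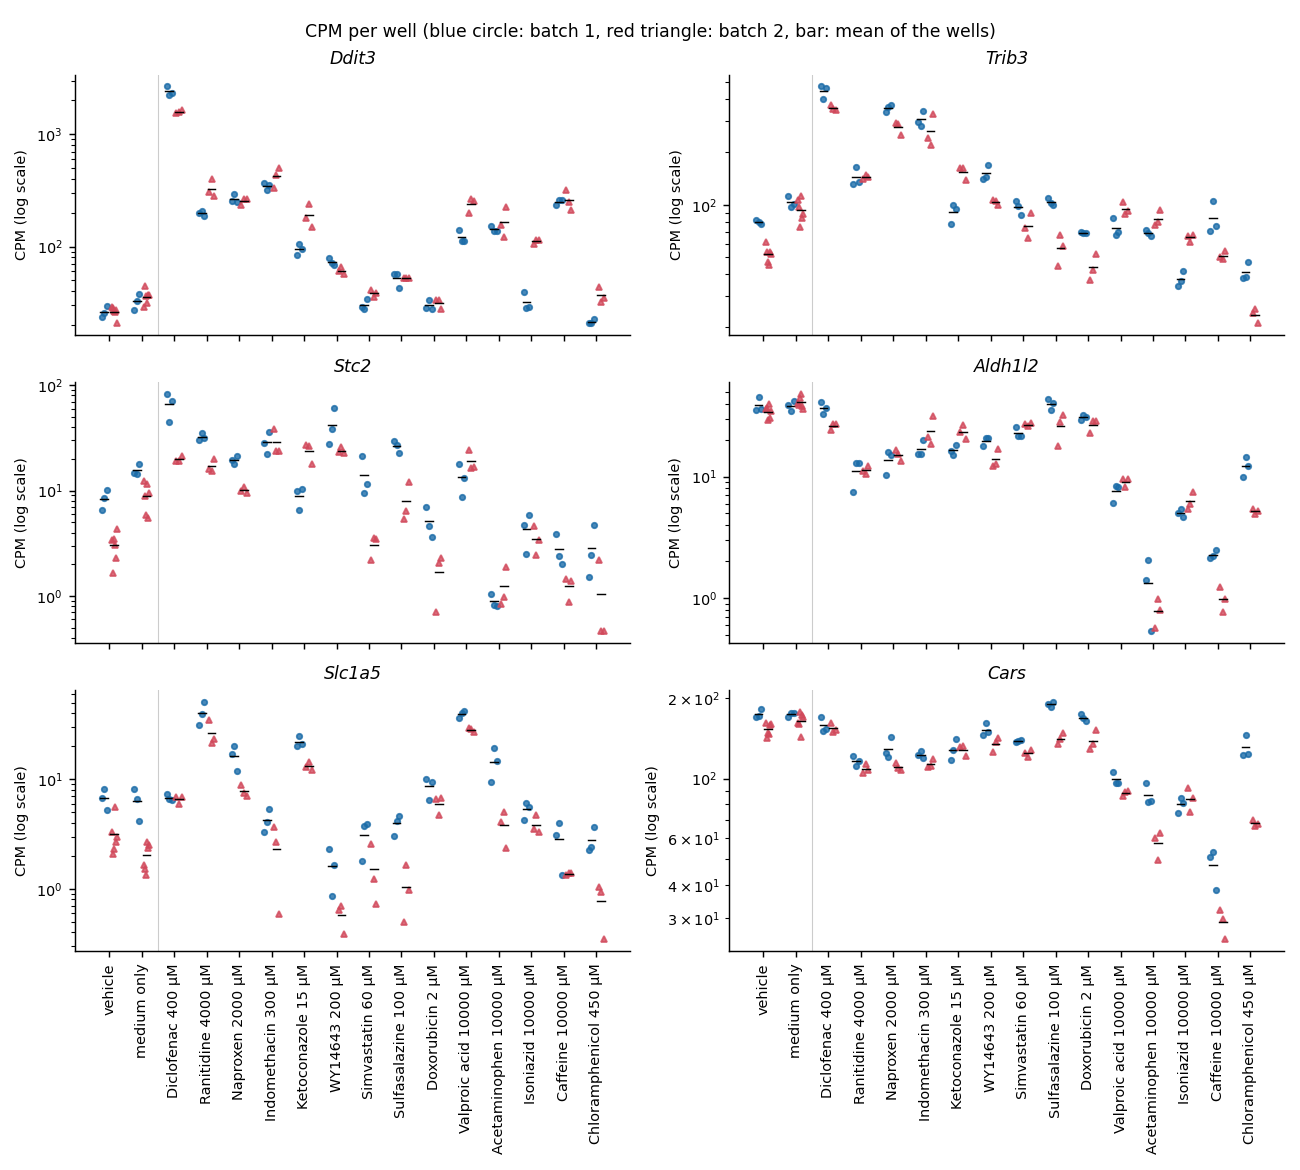
CPM of 6 members in each well (log axis) for vehicle, medium only and the 14 high concentrations, in batch 1 (blue circles) and batch 2 (red triangles), with the mean of the wells as a black bar. Ddit3 reaches 2665 CPM with diclofenac, while Aldh1l2 lies at or below 2.06 CPM with acetaminophen.

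Among the effectors, Stc2, a secreted glycoprotein induced by endoplasmic reticulum stress, had the largest rise. It was at 6.59, 8.56 and 10.0 CPM in the vehicle wells of batch 1 and 1.66 to 4.33 CPM (median 3.22) in those of batch 2. With diclofenac it was at 82.1, 45.1 and 70.8 CPM in batch 1 and 19.2, 19.0 and 21.2 CPM in batch 2. Treated wells were above vehicle in both batches, at levels that differed between the batches as the vehicle levels did (L2FC 2.90 ± 0.29, adjusted p = 1.4e-17, edgeR). Stc2 was also among the 2 leading risers with indomethacin (L2FC 2.65), ketoconazole (2.05), WY14643 at 200 µM (2.69) and sulfasalazine (1.59). Its rise with ketoconazole came from batch 2 (L2FC 3.02), since in batch 1 the L2FC was 0.12 and the wells overlapped vehicle, and the batches differed (2.89, adjusted p = 1.5e-06, interaction term in edgeR). Without well 1 of every group that call was lost. Chac1, a glutathione-degrading enzyme that CHOP and ATF4 induce, rose at one high concentration only, that of diclofenac (L2FC 1.20). It fell with acetaminophen (L2FC -2.40), chloramphenicol (-2.08), isoniazid (-1.93), ranitidine (-0.70) and ketoconazole (-0.59).

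In acetaminophen, isoniazid, ranitidine and ketoconazole, Chac1 was called lower and Ddit3 higher. With isoniazid, Chac1 was at 3.46, 5.62 and 5.06 CPM in batch 1 and 6.22, 5.78 and 5.78 CPM in batch 2, below all vehicle wells (21.3 to 25.7 CPM and 14.3 to 22.9 CPM). In the same wells Ddit3 was at 39.0, 28.1 and 28.7 CPM in batch 1, overlapping vehicle, and at 106, 115 and 114 CPM in batch 2, all above it. Sesn2, which restrains mTORC1 when amino acids are short, was higher at 9 high concentrations. Ddit4 (REDD1, also an mTORC1 inhibitor) was higher at 5 and lower at 7, and Eif4ebp1, the translation repressor 4E-BP1, was higher at 4 and lower at 4.

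The 3 largest falls of any member, those of Aldh1l2, Phgdh and Psat1, were all among the 6 enzymes of amino acid and one-carbon metabolism. Aldh1l2, the mitochondrial 10-formyltetrahydrofolate dehydrogenase, was lower at 11 of the 14 high concentrations and was among the 2 leading falls in 9 of them. In vehicle it was at 35.1, 45.3 and 35.7 CPM in batch 1 and 29.2 to 39.5 CPM (median 35.3) in batch 2. With acetaminophen it was at 1.40, 2.06 and 0.53 CPM in batch 1 and 0.56, 0.99 and 0.79 CPM in batch 2. These wells were all below vehicle (L2FC -5.14 ± 0.23, adjusted p = 2.6e-49, edgeR). Phgdh and Psat1, the first 2 enzymes of serine synthesis, fell with acetaminophen (L2FC -4.67 and -3.64), caffeine (-3.28 and -2.52) and chloramphenicol (-1.51 and -1.10). By edgeR and DESeq2, 0 calls of Phgdh, Psat1 or Aldh1l2 were higher at the high concentrations, and 0 of their positive L2FC values had an unadjusted p below 0.05.

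The rest of the role was less uniform. Shmt2, the mitochondrial serine hydroxymethyltransferase, was higher at 2 high concentrations and lower at 5, and Mthfd2, a mitochondrial folate enzyme, was higher at 3 and lower at 5. Asns, asparagine synthetase and a classical ATF4 target, was higher at 3 and lower at 4. Its largest fall was with caffeine, where it was at 43.9, 39.4 and 24.5 CPM in batch 1 and 22.3, 14.6 and 4.19 CPM in batch 2. Its vehicle wells were at 81.1 to 116 CPM and 39.0 to 77.1 CPM, above all caffeine wells of the same batch (L2FC -1.71 ± 0.31, adjusted p = 4.5e-07, edgeR). With diclofenac, where 25 members rose, Psat1 and Phgdh fell (L2FC -0.76 and -0.52), and the median L2FC of the 6 enzymes was 0.03. By the ST assay that fall of Phgdh was not called (L2FC -0.41).

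**Figure D4:**
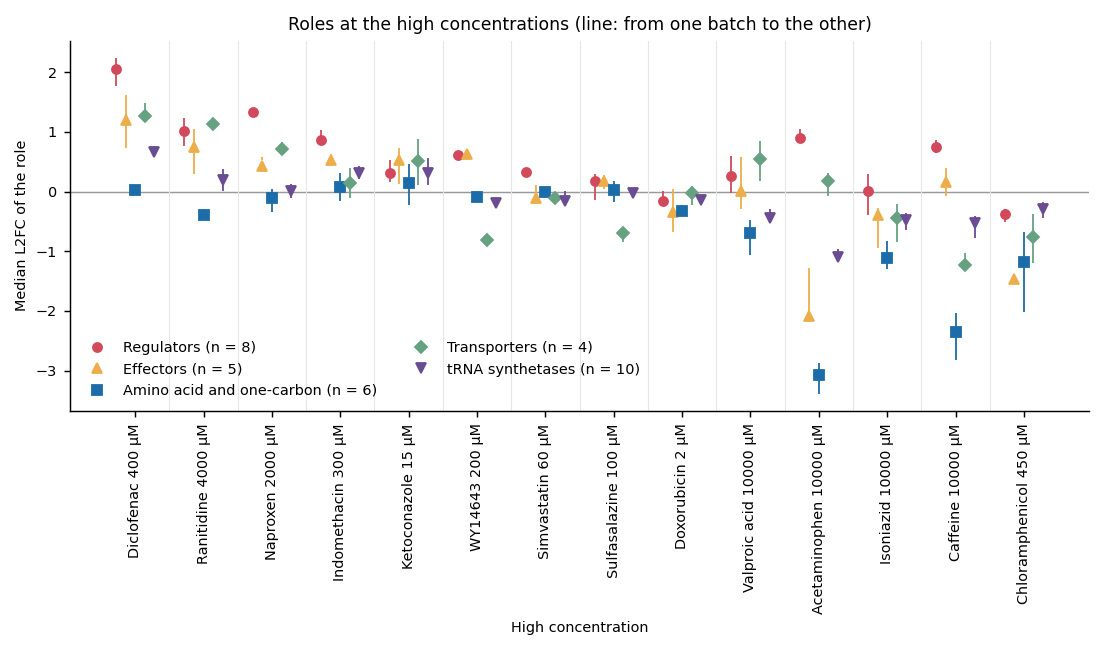
Median L2FC of each role (symbols) at the 14 high concentrations, with a line from the median in one batch to that in the other. The amino acid and one-carbon enzymes (blue squares) reach -3.08 with acetaminophen, where the regulators (red circles) stand at 0.90.

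The transporters split by gene. Slc1a5, the glutamine carrier ASCT2, was higher at 6 high concentrations and lower at 5. Its CPM was 6.71, 8.20 and 5.28 in vehicle of batch 1 and 2.08 to 5.63 (median 2.84) in batch 2. With valproic acid it was 36.4, 40.0 and 42.2 in batch 1 and 29.2, 29.0 and 26.8 in batch 2, with no overlap (L2FC 2.88 ± 0.23, adjusted p = 6.6e-25, edgeR). Ranitidine raised it nearly as much (L2FC 2.84 ± 0.23), and WY14643 at 200 µM lowered it (L2FC -2.19 ± 0.34). With WY14643 its mean was only 1.61 CPM in batch 1 and 0.58 CPM in batch 2. Its lowest count over all WT wells was 0, so low counts limit how exactly that fall is known. Slc7a5, the large neutral amino acid carrier LAT1, rose most with diclofenac (L2FC 2.18) and was higher at 6 and lower at 4. Slc7a1, a cationic amino acid carrier whose promoter is shown above, rose with diclofenac (L2FC 1.68) but was lower at 8 high concentrations. Slc1a4 (ASCT1) was higher at 5 and lower at one, chloramphenicol.

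The 10 cytosolic tRNA synthetases, which charge tRNAs with their amino acids, did not move as one group. Cars was lower at 11 of the 14 high concentrations and higher at 0 by edgeR or DESeq2 (0 at an unadjusted p below 0.05). Sars was higher at 5 and lower at 0 by either tool (1 at an unadjusted p below 0.05). Diclofenac raised Sars (L2FC 1.59), Wars (1.58), Eprs (1.36), Rars (1.23), Iars (0.76), Tars (0.58), Lars (0.51) and Aars (0.38). The largest difference of any synthetase was that of Iars with acetaminophen. Iars was at 108, 102 and 83.6 CPM in vehicle of batch 1 and 96.9 to 126 CPM (median 119) in batch 2, and at 13.6, 23.0 and 18.9 CPM and 27.9, 30.1 and 21.1 CPM with acetaminophen. All acetaminophen wells were below vehicle (L2FC -2.24 ± 0.11, adjusted p = 8.3e-47, edgeR). Cars had its largest fall with caffeine, from 171, 172 and 181.8 CPM to 50.9, 53.0 and 38.3 CPM in batch 1, and from 142 to 161 CPM to 32.2, 29.7 and 25.0 CPM in batch 2 (L2FC -2.14 ± 0.08).

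Mars had an SE of 0.27 to 0.30 in its calls, the largest among the synthetases. Its vehicle CPM was 22.2, 16.9 and 44.6 in batch 1 and 9.33 to 21.9 (median 17.9) in batch 2. With sulfasalazine at 100 µM it was 45.0, 34.5 and 38.8 in batch 1, which overlapped vehicle, and 34.8, 50.02 and 69.6 in batch 2, which did not (L2FC 1.16 ± 0.27, adjusted p = 1.9e-04, edgeR). Over the 28 treatments its L2FC had the lowest correlation with the median member (r = 0.07), and that of Eprs had the highest (r = 0.89). That median was taken over all members, so each gene was correlated with a median that included it.

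Among the remaining treatments with a positive median, ranitidine, a histamine H2 blocker, raised 20 members and lowered 9, where 31.4% of all genes were higher and 32.7% lower. Slc1a5 followed Ddit3 as its leading riser, and Aldh1l2 (L2FC -1.70) and Mars (L2FC -1.15) fell most. Naproxen raised 16 and lowered 5 (27.3% and 25.8% of all genes), led by Ddit3 and Trib3, with Aldh1l2 (L2FC -1.34) and Phgdh (-0.47) as the largest falls. Indomethacin raised 17 and lowered 3 (26.7% and 27.2%; 14 and 6 members by total counts alone), led by Ddit3 (L2FC 3.90) and Stc2, with falls of Aldh1l2 (-0.82) and Cars (-0.48). Ketoconazole, an azole antifungal, raised 19 and lowered 4 (24.5% and 25.9%), and 5 were called higher in batch 1 fitted alone. Its leading risers were Ddit3 (L2FC 2.44) and Stc2, and Aldh1l2 (-0.84) and Chac1 fell most. The hepatocyte markers were lower as well, all 8 of them with ranitidine (summed 11473 to 18848 CPM), 7 with naproxen (18780 to 20778 CPM), 7 with ketoconazole (20143 to 23419 CPM) and 3 with indomethacin, where 1 was higher (24049 to 34357 CPM). Of 3 tested Kupffer cell and leukocyte markers, 2 were lower with naproxen (all 5 summed 11.1 to 20.7 CPM), indomethacin (8.97 to 19.6 CPM) and ranitidine (15.4 to 26.5 CPM, the third higher), and with ketoconazole 1 was lower and 1 higher (17.3 to 36.8 CPM). Of 2 tested biliary markers, 1 was higher and 1 lower with naproxen (all 4 summed 9.09 to 15.5 CPM) and ranitidine (19.1 to 60.1 CPM), 1 was lower with indomethacin (16.9 to 24.5 CPM) and 1 higher with ketoconazole (39.7 to 57.4 CPM). The 1 tested stellate marker was lower with naproxen, indomethacin and ranitidine. The part of these markers in the members' values was not tested.

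WY14643, a PPARα agonist, raised 13 members and lowered 11 at 200 µM, where 25.8% of all genes were higher and 25.1% lower (9 and 15 members by total counts alone). Stc2 and Cebpb (L2FC 1.44) rose most, and Slc1a5 and Atf3 fell most. At 8 µM it raised 8 and lowered 13 (27.4% and 27.7% of all genes), the most of any low concentration. Asns rose there (L2FC 1.10 ± 0.28), at 125, 278 and 180 CPM in batch 1 and 109, 188 and 112 CPM in batch 2, all above vehicle. At 200 µM 3 hepatocyte markers were higher and 2 lower (summed 36565 to 41265 CPM), 1 biliary marker was higher and 1 lower (27.1 to 40.1 CPM), and 1 Kupffer cell and leukocyte marker was higher (19.9 to 45.0 CPM). At 8 µM 1 hepatocyte marker was higher and 1 lower (41247 to 48781 CPM), and 1 biliary marker was higher (39.2 to 49.3 CPM). The part of these in the members' values was not tested.

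Simvastatin at 60 µM raised 5 and lowered 5 members (11.4% and 12.4% of all genes; 3 and 6 members by total counts alone). Cebpb (L2FC 0.96) and Cebpg (0.45) rose, and Slc1a5 (-1.09) and Atf3 (-0.60) fell. Without well 1 of every group 3 members were higher, and without well 2 or 3 the lower members numbered 2 and 3. Sulfasalazine at 100 µM raised 7 and lowered 8 (20.5% and 19.2%; 5 and 9 by total counts alone), with Stc2 and Mars as risers and Slc1a5 (L2FC -1.04) and Atf3 as falls. Doxorubicin at 2 µM, a topoisomerase poison, lowered 4 and raised none by edgeR (8.96% of all genes higher and 10.0% lower). DESeq2 called 1 member higher there, edgeR with RLE size factors called 1 higher and 3 lower, and 3 had a positive L2FC at an unadjusted p below 0.05. The largest called falls were those of Slc7a1 (L2FC -0.49 ± 0.14) and Psat1 (-0.36 ± 0.13), while the lowest L2FC of any member was -0.70 and was not called. The count of 4 was not stable, at 0 without well 1 of every group, 1 without well 3, 1 in batch 1 alone, 8 in batch 2 alone and 10 with only doxorubicin and vehicle wells fitted. The call of Slc7a1 was lost without well 1 or 3, and that of Psat1 without any one of the 3. In the doxorubicin wells 4 of 8 hepatocyte markers were lower and 1 higher (summed 23044 to 33701 CPM), 2 of 3 tested Kupffer cell and leukocyte markers were lower (3.55 to 7.28 CPM), and so was the 1 tested stellate marker (0.713 to 5.37 CPM). With simvastatin 4 hepatocyte markers were higher and 1 lower (37831 to 47395 CPM) and 1 biliary marker was higher and 1 lower (34.5 to 59.5 CPM), and with sulfasalazine 4 hepatocyte markers were higher (42276 to 51697 CPM). Their part in the members' values was not tested.

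Acetaminophen and caffeine had negative medians although most regulators rose with them. Acetaminophen raised 9 members, of which 6 were regulators, and lowered 17, where 38.3% of all genes were higher and 39.6% lower (6 and 22 members when scaled by total counts alone). Atf3 and Ppp1r15a (L2FC 2.75 ± 0.11) led the rises. Caffeine raised 7, of which 5 were regulators, and lowered 17 (33.7% and 31.0%), led by Ddit3 (L2FC 3.30 ± 0.16), with Aldh1l2 (-4.58) and Phgdh as the largest falls. Valproic acid raised 8, of which 3 were regulators, and lowered 15 (32.8% and 32.5%; scaling by total counts alone gave 14 and 12), with Slc1a5 and Ddit3 (L2FC 2.79) at the top and Aldh1l2 (-2.12) and Atf5 at the bottom. Of the 8 hepatocyte markers, 4 were lower and 1 higher with acetaminophen (summed 29639 to 51019 CPM), 5 lower and 2 higher with caffeine (17748 to 29717 CPM) and all 8 lower with valproic acid (11955 to 19683 CPM). Of 3 tested Kupffer cell and leukocyte markers, 2 were lower and 1 higher with acetaminophen (all 5 summed 19.1 to 39.9 CPM) and valproic acid (9.59 to 16.1 CPM), and 2 were lower with caffeine (5.73 to 13.2 CPM). One of 2 tested biliary markers was higher with valproic acid (39.2 to 56.1 CPM for all 4), and the 1 tested stellate marker was lower with acetaminophen (6.48 to 21.8 CPM for the list) and caffeine (1.40 to 10.0 CPM). Their part in the members' values was not tested.

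Isoniazid raised 3 members and lowered 18 (17.2% of all genes higher and 17.2% lower). Ddit3 (L2FC 0.30 in batch 1 and 2.08 in batch 2) and Ppp1r15a (0.68) rose, and Aldh1l2 (-2.67) and Chac1 fell most. Chloramphenicol, an antibiotic that also blocks mitochondrial protein synthesis, raised 1 member and lowered 25, where 15.9% of all genes were higher and 17.0% lower. The one riser was Rars (L2FC 0.38 ± 0.14), whose wells overlapped vehicle in batch 2 and whose call was lost without well 1, 2 or 3 of every group (L2FC 0.34 to 0.40). Aldh1l2 (L2FC -2.15 ± 0.16) and Ddit4 (-2.09 ± 0.16) fell most. Ddit4 was at 7.89, 6.18 and 11.2 CPM in batch 1 and 9.15, 8.47 and 7.77 CPM in batch 2, below all vehicle wells (23.0 to 28.9 CPM and 36.6 to 56.2 CPM). In batch 1 fitted alone 13 members were called lower, and the median member L2FC was -0.42 in batch 1 and -0.80 in batch 2. Of the 8 hepatocyte markers, 7 were lower with isoniazid (summed 22420 to 30831 CPM) and 4 with chloramphenicol (19703 to 30860 CPM), where both tested biliary markers (17.8 to 30.0 CPM for all 4) and the 1 tested stellate marker were lower too. Of 3 tested Kupffer cell and leukocyte markers, 1 was higher and 1 lower with isoniazid (all 5 summed 16.7 to 68.4 CPM) and 1 was lower with chloramphenicol (16.5 to 35.3 CPM), and 1 biliary marker was higher with isoniazid (34.9 to 45.2 CPM for all 4). The part of these in the members' values was not tested.

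Of the 14 low concentrations, 5 gave member calls. Valproic acid at 400 µM raised 6 and lowered 7 (14.9% and 13.9% of all genes), with Stc2 (L2FC 1.06) and Slc7a5 (-0.80) as the largest changes. Naproxen at 80 µM raised 3 and lowered 5 (8.56% and 7.36%), sulfasalazine at 4 µM raised 2 and lowered 4 (9.28% and 8.01%) and indomethacin at 12 µM raised 1, Psat1 (L2FC 0.55), and lowered 0 by edgeR or DESeq2 (3.52% and 2.33%), with 4 negative L2FC values at an unadjusted p below 0.05. At the other 9 low concentrations edgeR called no member in either direction, DESeq2 called 0 as well, and 0.391% of all gene and treatment pairs were higher and 0.333% lower. At an unadjusted p below 0.05, 9 of 297 member and treatment pairs there were higher and 12 lower. Hepatocyte markers were higher and none lower with valproic acid at 400 µM (1 of 8), naproxen at 80 µM (3), sulfasalazine at 4 µM (2) and indomethacin at 12 µM (3), within sums of 37268 to 59250 CPM. One biliary marker was lower with valproic acid (21.6 to 36.4 CPM) and sulfasalazine (25.3 to 35.4 CPM), and 1 Kupffer cell and leukocyte marker was higher with naproxen (18.9 to 47.8 CPM). Their part in the members' values was not tested.

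In the medium-only wells the WT assay called 15 of 33 members higher than in vehicle and 0 lower, where 7.39% of all genes were higher and 5.04% lower. In the WT assay 0 members had a negative L2FC at an unadjusted p below 0.05, and DESeq2 called 0 lower. The ST assay, on the same lysates, called Slc1a5 lower in medium (L2FC -0.92, adjusted p = 0.0035, edgeR), where its WT value was -0.35 ± 0.25 and was not called. Of the members that WT called higher and ST tested, ST called Ddit4, Eprs, Psat1, Sars and Trib3 higher too. It did not call Cebpb, Chac1, Eif4ebp1, Iars, Mthfd2 or Phgdh, and it called Aars, Atf4 and Ddit3 higher where WT did not. By WT, Stc2 had the largest difference (L2FC 1.34 ± 0.29), followed by Psat1. Psat1 was at 625, 613 and 550 CPM in medium of batch 1 and 607 to 742 CPM (median 690) in batch 2, against 425, 478 and 385 CPM and 310 to 383 CPM (median 346) in vehicle. The wells did not overlap in either batch (L2FC 0.81 ± 0.12, adjusted p = 2.7e-08, edgeR). Among the cell type markers, the 1 tested stellate marker (17.5 to 64.8 CPM for the list) and 1 Kupffer cell and leukocyte marker (20.6 to 44.1 CPM for all 5) were higher in medium, and 1 hepatocyte marker was higher and 1 lower (41057 to 50391 CPM), and their part in the members' values was not tested. In batch 1 fitted alone, 1 member was called higher, and 9 were without well 2 of every group. Every treated well also held DMSO, so the comparison with medium is one of the solvent and not of a chemical.

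Other genes of the pathway followed their own lists. Of 12 genes for the eIF2 kinases and eIF2 machinery, 10 were tested, and over the 14 high concentrations 58 of 140 pairs were higher and 12 lower (41.4% and 8.57%, against 25.0% of all gene and treatment pairs in each direction). The largest were Eif2ak1, the haem-regulated kinase, with acetaminophen (L2FC 2.18 ± 0.06) and Eif2b1, a subunit of the eIF2 exchange factor, with diclofenac (2.17 ± 0.08). A list of 20 other ATF4 targets, 13 of them tested, gave 57 calls higher and 69 lower (31.3% and 37.9% of pairs), and its largest differences were falls with acetaminophen of Fgf21, a hepatokine (L2FC -6.58), Cth, cystathionine gamma-lyase (-4.57), and Gpt2, mitochondrial alanine aminotransferase (-3.67). The 6 other cytosolic tRNA synthetases tested gave 20 of 84 pairs higher and 16 lower (23.8% and 19.0%), and the 13 mitochondrial ones gave 16 higher and 35 lower (8.79% and 19.2% of pairs), none of them above the share of all genes. The largest differences among the mitochondrial ones were those of Cars2, higher with acetaminophen (L2FC 1.94 ± 0.20, from 2.87 in batch 1 and 0.56 in batch 2), and of Wars2, lower with valproic acid (-1.75). Among the other cytosolic ones they were falls of Vars (L2FC -1.71) and Farsb (-1.56) with acetaminophen. The 12 endoplasmic reticulum chaperones and genes of the other unfolded protein response arms gave 65 of 168 pairs higher and 43 lower (38.7% and 25.6%). With diclofenac 10 of these 12 were higher (35.3% of all genes), led by Creld2 (L2FC 2.84 ± 0.13). With indomethacin 10 of 12 were higher (26.7% of all genes), led by Hspa5, the chaperone BiP (2.74 ± 0.32). With isoniazid 10 of the 12 were lower (17.2% of all genes).

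Over the 28 treatments, the 5 other genes with an L2FC most like that of the median member were Mthfd1l (r = 0.90), Grb10 (r = 0.85), Pck2 (r = 0.84), Atxn2l (r = 0.82) and Hspa9 (r = 0.81). These correlations describe treatments that share their vehicle wells.

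The ST assay held probes for 24 of the 33 members, and 23 of them passed its count filter in the same lysates with its own libraries (Slc7a1 did not). Of 203 calls that the WT assay made for them at the high concentrations, ST made the same call in 175 and the opposite call in none. The L2FC of Ddit3 with diclofenac was 6.58 by ST, that of Atf4 was 1.78, that of Phgdh with acetaminophen was -4.59 and that of Slc1a5 with valproic acid was 2.94. The fall of Asns with ranitidine (WT L2FC -1.002) was smaller by ST (-0.49) and was not called.

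**Figure D5:**
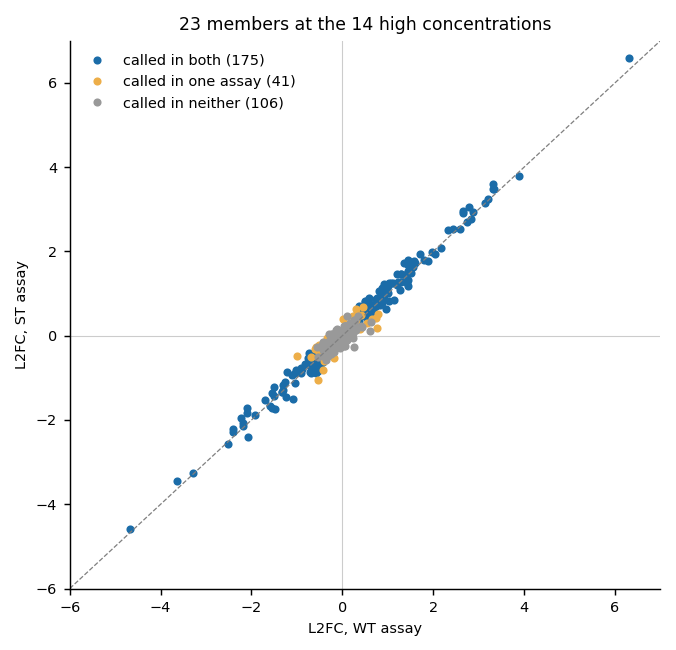
L2FC by the ST assay against L2FC by the WT assay for the 23 members tested in both, at the 14 high concentrations (322 points); the dashed line marks equal values. Points called in both assays (175) lie in the upper right or lower left.

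The batches differed in size of response for some members. A test of the difference between the batches' L2FC (an interaction term in edgeR, adjusted over all genes) passed for 59 of 462 member and treatment pairs at high concentration, where it passed for 4.40% of all pairs. These were most frequent with ketoconazole (11 of 33 members, against 3.29% of all genes), valproic acid (10, against 8.64%), ranitidine (7, against 13.0%), caffeine (7, against 8.78%) and chloramphenicol (6, against 0.373%).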

How the data were processed

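The deposited tables held raw read counts per probe, one table per assay, which the authors made with bcl2fastq, STAR 2.5.3a on rn6 and the Tempo-SeqR package. The 33 members and the gene lists were chosen with earlier results of these data known, so they are not independent of them. Counts of probes of one gene were summed (Cebpb and Slc7a1 had several). Genes with a mean count of at least 10 were fitted over 186 WT wells with batch and treatment as terms by edgeR 4.0.16 (TMM, quasi-likelihood F test, R 4.3.3), and each batch was fitted alone for the sign. SE is the absolute L2FC over the square root of F. Wells of a batch come from one rat, so p-values mostly measure technical spread. Genes named per treatment are the 2 called members with the largest rise and the 2 with the largest fall. Per-well values are given for every regulator and for the member of each other role with the largest called L2FC, in the treatment where it is largest, and for further members chosen after their values were seen. From each other gene list, genes with the largest called L2FC are named. Alternatives were DESeq2 1.42.0, other scalings, no filter, an L2FC threshold of 1, single batches, same-plate vehicle, single probes, the ST assay and leaving out replicates. The script was tested on simulated data. Promoters were RefSeq entries of GRCr8.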

Additional observations from a re-analysis of the deposited data

Results flagged for a closer look

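Among the batch 2 vehicle and medium-only wells, 66 groups of 6 wells were examined for a well far from the others, and 2 members had one in vehicle. One well held 81.22 CPM of Slc7a1, where the median of the 6 wells was 65.71 CPM, and one held 5.628 CPM of Slc1a5, where the median was 2.836 CPM. Chance marks about 1 in 20 such groups.

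For 11 member and treatment pairs at high concentration the batches differed in L2FC (interaction term, edgeR, adjusted over all genes) and the sign was opposite. Trib3 accounted for 3 of them, with a batch 2 minus batch 1 difference of 0.8756 with acetaminophen (L2FC -0.19 in batch 1 and 0.68 in batch 2), 1.402 with isoniazid (-1.08 and 0.32) and 0.983 with valproic acid (-0.10 and 0.90). With valproic acid the difference was also 1.483 for Chac1 (-0.91 and 0.59) and 0.6822 for Eprs (-0.49 and 0.21). With caffeine it was 1.668 for Atf3 (-1.57 and 0.10) and 0.4798 for Eif4ebp1 (-0.08 and 0.40). With sulfasalazine it was -0.9492 for Atf5 (0.62 and -0.37) and -0.5513 for Eif4ebp1 (0.18 and -0.41). With doxorubicin it was -0.8669 for Ddit4 (0.04 and -0.83), and with ketoconazole 0.4823 for Psat1 (-0.43 and 0.06). None of these pairs carries a call in the report, and the cause of the differences was not tested. With one rat per batch, animal and batch cannot be told apart.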

How the results depend on the processing

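No paired analysis was possible because the replicate numbers follow the order of the samples and tie no wells across groups. The animal, which is the batch, was a term in every fit of both batches. Counts within 1.5 times of the reported ones are not listed. With an L2FC of at least 1 required, which can only remove calls, higher members numbered 5 for acetaminophen, 0 for chloramphenicol, 6 for indomethacin, 1 for isoniazid, 5 for ketoconazole, 8 for naproxen, 9 for ranitidine, 0 for simvastatin, 3 each for sulfasalazine, valproic acid and WY14643, 6 at the low concentrations together and 1 for medium. Lower members then numbered 10 for chloramphenicol, 0 each for diclofenac, doxorubicin, indomethacin and ketoconazole, 6 for isoniazid, 1 each for naproxen and simvastatin, 2 for sulfasalazine, 3 each for ranitidine, valproic acid and WY14643, and 3 at the low concentrations.

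Calls made in each batch alone were fewer. Higher members numbered 0 for chloramphenicol, 1 for isoniazid, 5 for ketoconazole, 2 for simvastatin, 3 for sulfasalazine, 4 for valproic acid, 11 at the low concentrations and 1 for medium. Lower members numbered 13 for chloramphenicol, 1 each for doxorubicin and simvastatin, 2 each for diclofenac, ketoconazole and naproxen, 4 each for ranitidine and sulfasalazine, 7 for WY14643 and 12 at the low concentrations. Batch 1 alone gave 0 higher for chloramphenicol, 1 for isoniazid and for medium, 5 for ketoconazole, 3 for simvastatin and 4 for valproic acid, with 13 lower for chloramphenicol, 2 for diclofenac, 1 for doxorubicin, 4 for sulfasalazine, 7 for WY14643 and 12 at the low concentrations. Batch 2 alone gave 2 higher and 8 lower for doxorubicin, 2 lower each for ketoconazole and naproxen, 5 for ranitidine, 1 for simvastatin and 15 for sulfasalazine. With vehicle of the same plate these were 2 and 7, then 2, 2, 5, 2 and 14, and diclofenac had 2 lower.

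Under total counts, chloramphenicol had 2 higher, simvastatin 3 higher, valproic acid 14 higher and indomethacin 6 lower, and the median member L2FC of WY14643 at 200 µM was -0.1898. DESeq2 and RLE size factors each gave 1 higher for doxorubicin. Fitting only the wells of a treatment and vehicle gave 4 higher and 10 lower for doxorubicin, 8 higher for simvastatin and 5 lower for indomethacin. One probe per gene gave 2 lower for doxorubicin, and no filter gave 3 lower each for naproxen and simvastatin. Over the 23 members tested in both assays, ST gave 1 higher and 1 lower for doxorubicin (WT 0 and 2), 3 higher for sulfasalazine (WT 5), and 1, 2 and 3 lower for diclofenac, indomethacin and ranitidine (WT 4, 1 and 5).

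Without one replicate, higher members ranged from 0 to 1 for chloramphenicol, 3 to 5 for simvastatin, 12 to 16 at the low concentrations and 9 to 11 for medium, and lower members from 0 to 3 for doxorubicin, 2 to 4 for simvastatin and 16 to 23 at the low concentrations. The cause of these changes was not tested. With one animal per batch, low counts in a member such as Aldh1l2 under acetaminophen limit how exactly its fall is known.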
